A study of Homo sapiens with 4 samples.

Results

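The response elements (REs) of metabolism genes described here are 85 of 1356 binding sites of p53 that are listed in the source data of the study, each with a position, a 20-bp sequence, a gene and a function. An RE was taken when its listed function was metabolism, which left 81 gene names. The genes RRM2B (1 RE, spelled RRMB2), SESN1, SESN2, FDXR, GLS2, TIGAR and TP53I3 were not included. Chromatin immunoprecipitation with an anti-p53 antibody and sequencing (ChIP-seq) measured the binding in H1299, a human lung cancer line that has no p53 of its own. The cells expressed the Tet repressor and carried a lentiviral, tetracycline (Tet)-inducible gene for wild-type (WT) p53 or for K120R p53, in which Lys120 is replaced by arginine. Each form was assayed in untreated cells and after 24 h with Tet, at a dose of 1 µg per ml in the methods and per µl in the labels. All p53 in these cells therefore came from the transgene, and each of the 4 conditions was 1 library, so that no test between conditions was possible. The question addressed was which REs of WT p53 are also occupied by the K120R form.

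p53 binds DNA as a tetramer, and its consensus RE is built from a pair of decamers, each with a CWWG core (W is A or T) between purines on one side and pyrimidines on the other. Lys120 lies in the DNA-binding domain and contacts the DNA, and it can be acetylated. Besides cell cycle arrest and apoptosis, p53 is known to control sugar, lipid, nucleotide and amino acid metabolism, and it does so through REs near or inside the genes it regulates. The study compared the G/C content of the 4 positions that flank the cores, which are positions 3, 8, 13 and 18 and are called the G/C positions below. It chose these positions on the same libraries and with these REs among the listed ones, so the values given for them are a description and not independent evidence.

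The sequences on which the results turn are shown with positions 3, 8, 13 and 18 in capitals, 5′ to 3′ as listed. All 85 listed sequences were found at their positions in the GRCh37 reference, 45 as written and 40 as the reverse complement. The first set holds 7 of the 10 REs with the largest WT peaks (NPL and HS3ST4 stand in the third set, and SPTSSA is not shown), the second the REs with the largest K120R peaks that are not in the first set, and the third 3 REs with large WT peaks and no K120R peak. The last set holds REs at the ends of the range of G/C content that went against the relation with K120R binding described below, 1 with no G/C and no K120R peak and 3 with many G/C and a K120R peak.
MTHFD1L: ggAcatgCccagGcatgTcc
BCKDHB (distal RE): ggActtgCctggGcctgTcc
ALOX5: gaAcatgTcagaGcatgTgg
RSBN1L-AS1: ggGcatgTaccaAcatgCcc
PRKAG2: gaGcatgTctgaAcatgTtc
SLC2A2: ggAcatgTctgtTcatgTcc
PAPSS1: tgGcatgTccagGcatgTaa
CERS6: tgAcatgTcagaGcctgGcc
AK3: gaGcaagTctggAcaagTac
DERA: acAcaagAcagaAgatgCag
NPL: ggGcatgTctggGcaagTcc
HS3ST4: agAcatgTccacAgctgCac
DHRS2: agGcatgCccagAcatgTac
MID1IP1: agAcatgTctagAcatgTgt
ALDH3A1: ggAcatgCcaggGcacgCtt
FHL2: agGcaagTccctGcatgCct
DHRS3: cgGcaagTcccgGcttgCag

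Peaks were read from the 4 deposited lists, and an RE had a peak when the peak covered at least 1 bp of it. Fold enrichment is the height of a peak over the local background that the peak caller estimated from the input. The ChIP libraries held 33059650 to 34857204 tags, and the lists held 488 peaks for WT p53 in untreated cells, 4326 for WT p53 after Tet, 12 for K120R p53 in untreated cells and 2023 for K120R p53 after Tet. The caller used a fragment length of 170 bp for WT p53 after Tet and of 64 to 68 bp for the other libraries, so fold enrichments and ranks are on 1 scale within a list only. Values of different lists are given side by side, and no difference between them was read as a difference in binding. Where no peak was called, weaker binding could still have been present below the threshold of the caller. Intervals below are exact Clopper-Pearson 95% intervals for shares and exact order-statistic 95% intervals for medians, and they cover the counting of REs only, not variation between experiments.

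WT p53 had a peak after Tet at 83 of the 85 REs, beside 98.4% of all listed REs. The list was made from sites of WT binding, so this count checks the membership and is not a result. The REs without a WT peak were those of ENGASE, which encodes a glycosidase that releases N-glycans, and CHST8, which encodes a sulfotransferase that acts on N-acetylgalactosamine. The 83 REs lay in 83 different peaks. The summit of the WT peak lay within 100 bp of the centre of the RE at all 83 REs, at a median distance of 12 bp. The median WT fold enrichment was 13.7 (quartiles 9.38 and 21.3, 95% interval 11.1 to 16.9), and it was 13.7 over the other listed REs too. Values ran from 3.76 at the RE of PSAT1, an enzyme of serine synthesis, to 62.9 at the RE of MTHFD1L, and 11 REs reached at least 30.

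The 2 largest WT peaks lay at REs of mitochondrial enzymes. The RE of MTHFD1L, which makes formate from folate-bound one-carbon units in mitochondria, had a fold enrichment of 62.9 for WT p53 after Tet, 37.7 for WT p53 in untreated cells and 14.5 for K120R p53 after Tet. It lay 8.32 kb upstream of the gene, outside any annotated gene, at chr6:151178483-151178502. This RE ranked 16 among all 4326 WT peaks and 9 among the 488 peaks of untreated cells. The distal RE of BCKDHB, which encodes a subunit of the branched-chain ketoacid dehydrogenase, had a fold enrichment of 58.4 for WT p53 after Tet, 10.4 in untreated cells and 20.1 for K120R p53 after Tet. It lay 429.8 kb from the start of the gene, beyond its end, at chr6:81246124-81246143.

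The next largest WT peaks lay at REs listed mostly for genes of sugars, lipids, sulfate transfer and energy sensing. The RE of NPL, whose product cleaves sialic acid, had a fold enrichment of 47.4 for WT p53 after Tet and 9.42 in untreated cells, and it had no K120R peak. The RE of ALOX5, the 5-lipoxygenase that starts leukotriene synthesis, had 42.6 for WT p53 and 24.1 for the K120R form after Tet, and no peak in untreated cells. The K120R peak at ALOX5 ranked 16 of 2023 and was the largest over any of the 85 REs. The RE of PRKAG2, a regulatory subunit of the energy sensor AMPK, had 36.6 for WT p53 after Tet, 20.2 in untreated cells and 7.49 for K120R p53 after Tet. The RE of SLC2A2, which encodes the glucose transporter GLUT2, had 34.4 for WT p53 and 12.9 for the K120R form after Tet, and no peak in untreated cells. Among the 10 REs with the largest WT fold enrichment, those of ALOX5 and SLC2A2 were the only ones without a peak in untreated cells. Among sphingolipid genes, the RE of SPTSSA, a small subunit of serine palmitoyltransferase, had 33.4 for WT p53 after Tet, 10.1 in untreated cells and 12.9 for K120R p53 after Tet. The RE of PAPSS1, which makes the sulfate donor of sulfotransferases, had 33.1, 6.73 and 6.10 in the same order. The RE of HS3ST4, a heparan sulfate sulfotransferase, had 32.2 after Tet and 7.85 in untreated cells for WT p53, and no K120R peak. PAPSS1 and HS3ST4 both serve sulfate transfer, and the K120R peak at PAPSS1 had a −log10 q of 5.21, so the REs are not shown to differ in K120R binding. The RE listed for RSBN1L-AS1, a long noncoding RNA that the annotation names APTR, had 40.5 for WT p53 after Tet, 8.50 in untreated cells and 9.05 for K120R p53 after Tet. Of the 10 REs with the largest WT fold enrichment, 8 had a K120R peak and 8 had a WT peak in untreated cells, beside 40.6 and 23.8% of all listed REs with a WT peak. In the highest quartile of WT fold enrichment, 72.5% of all listed REs had a K120R peak.

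The reference sequence around 4 of these sites is given on the plus strand of GRCh37, with the RE in capitals, to show sites with large WT peaks whose K120R peak was large (MTHFD1L and ALOX5), small (ALDH3A1) or not called (NPL). The RE of MTHFD1L is in chr6:151178463-151178522, that of NPL in chr1:182730674-182730733, that of ALOX5, in an intron of the gene, in chr10:45933974-45934033, and that of ALDH3A1, an aldehyde dehydrogenase that detoxifies lipid aldehydes, in chr17:19656621-19656680.
MTHFD1L: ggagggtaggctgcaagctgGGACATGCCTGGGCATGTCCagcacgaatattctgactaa
NPL: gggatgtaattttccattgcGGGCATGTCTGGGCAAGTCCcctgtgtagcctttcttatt
ALOX5: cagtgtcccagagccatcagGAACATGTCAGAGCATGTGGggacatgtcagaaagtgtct
ALDH3A1: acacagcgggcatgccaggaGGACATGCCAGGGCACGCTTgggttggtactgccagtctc

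K120R p53 had a peak after Tet at 39 of the 83 WT-bound REs (47.0%, 95% interval 35.9 to 58.3%). Over all listed REs with a WT peak the share was 40.6%, which lies inside that interval, so the share of metabolism REs was not distinguishable from it. In untreated cells K120R p53 had no peak over any of the 85 REs, beside 0.075% of the listed REs. The K120R fold enrichment ran from 3.38 at the RE of COX4I2, a subunit of cytochrome c oxidase, to 24.1 at ALOX5, with a median of 8.19. Of the 39 K120R peaks, 21 had a −log10 q of at least 10 and 8 had a −log10 q under 5. The summit of the K120R peak lay within 100 bp of the RE at 37 of the 39 REs, and it lay 119 bp away at DERA and 105 bp away at CYP1B1, which encodes an oxidase of steroids and xenobiotics.

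The 5 largest K120R peaks lay at REs of ALOX5 (24.1), the ceramide synthase CERS6 (20.7), BCKDHB (20.1), the mitochondrial adenylate kinase AK3 (18.8) and the deoxyribose-phosphate aldolase DERA (18.7). The RE of CERS6 had a WT fold enrichment of 30.7, and that of DERA had 27.3. The RE of AK3 had a WT fold enrichment of 14.5, close to the median of the 83 REs. The RE of FAH, the enzyme of the last step of tyrosine breakdown, had 13.6 for K120R p53 and 10.9 for WT p53. The RE of DERA departed from the consensus RE at 6 bp, and its WT summit lay 94 bp from it.

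**Figure D1:**
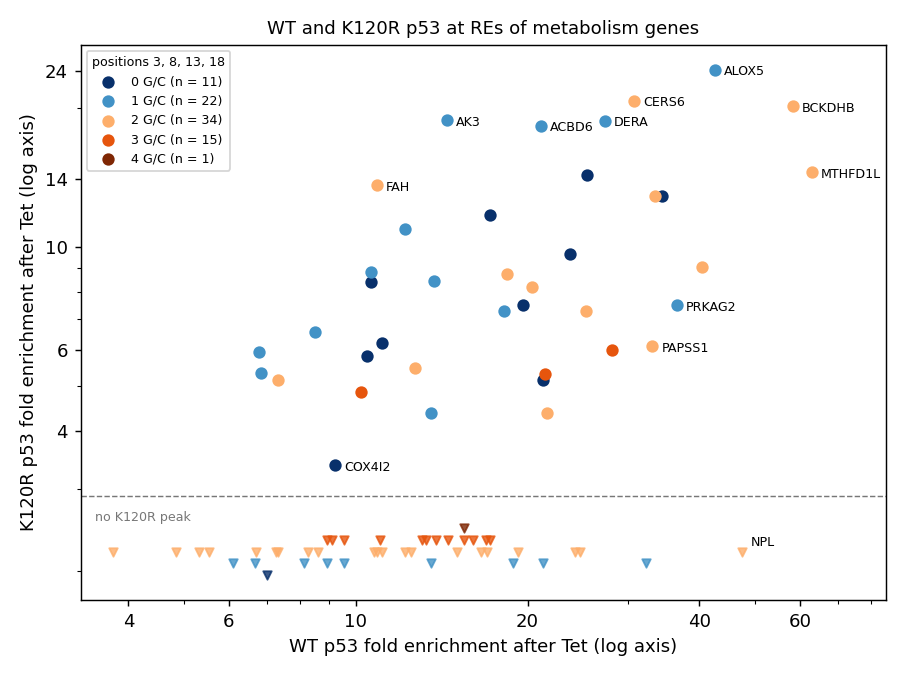
Fold enrichment of WT p53 (x axis) and K120R p53 (y axis) after Tet at the 83 REs of metabolism genes with a WT peak, both on log axes. Circles are the 39 REs with a K120R peak, triangles below the dashed line are the 44 REs without one (their height has no meaning), and colours count G/C bps at the 4 G/C positions. REs with 3 or 4 G/C bps are mostly triangles, and NPL (47.4) has the largest WT peak without a K120R peak.

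The median WT peak was larger at REs with a K120R peak, but the intervals of the medians overlapped. The median WT fold enrichment was 19.6 (95% interval 12.7 to 25.4) at the 39 REs with a K120R peak and 11.7 (95% interval 9.10 to 14.5) at the 44 REs without one. The ratio of the medians was 1.68 by fold enrichment and 1.60 by pileup, the height at the summit as scaled by the caller, and it was 1.78 by fold enrichment over all listed REs. The distributions overlapped widely, and in 71.8% of pairs made of an RE with and an RE without a K120R peak the first had the larger WT fold enrichment. When the REs were divided at the quartiles of all listed REs (9.21, 13.7 and 21.9), K120R p53 had a peak at 5 of 21, 9 of 20, 11 of 24 and 14 of 18 REs, in rising order of WT fold enrichment. The share was 77.8% (95% interval 52.4 to 93.6%) in the highest quartile and 23.8% (95% interval 8.22 to 47.2%) in the lowest, beside 72.5% and 20.1% over all listed REs.

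The 5 largest WT peaks without a K120R peak began with those of NPL (47.4) and HS3ST4 (32.2). Then came REs listed for PURG (24.7), a protein that binds purine-rich DNA, DHRS2 (24.2), a carbonyl reductase, and PLA2G4A (21.3), the phospholipase that releases arachidonic acid from membranes. The RE of NPL had no mismatch to the consensus. Over all 10 REs with no mismatch, 4 had a K120R peak and 6 did not, a share close to the 40.6% of all listed REs.

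The G/C content at the 4 G/C positions differed between REs with and without a K120R peak. A K120R peak was found at 10 of 11 REs with no G/C bp, 13 of 22 with 1, 13 of 34 with 2, 3 of 15 with 3 and 0 of 1 with 4. These shares were 90.9, 59.1, 38.2, 20.0 and 0%, beside 77.6, 55.7, 34.3, 18.3 and 14.3% over all listed REs. With 0 or 1 G/C bp, 23 of 33 REs had a K120R peak (69.7%, 95% interval 51.3 to 84.4%), beside 62.5% over all listed REs. With 3 or 4 G/C bps, 3 of 16 REs had one (18.8%, 95% interval 4.05 to 45.6%), beside 17.6%. The intervals of these 2 classes did not overlap, but with 1 RE per gene they did (22 of 32, 50.0 to 83.9%, and 3 of 14, 4.66 to 50.8%). The single RE with 4 G/C bps, at 0 of 1, allows a share of up to 97.5%. The median WT fold enrichment did not follow the same order clearly. It was 17.2 with 0 G/C bps (95% interval 9.21 to 25.5), 13.6 with 1 (8.48 to 21.1), 13.9 with 2 (10.8 to 21.6) and 14.2 with 3 or 4 (10.2 to 16.9), and these intervals overlapped.

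**Figure D2:**
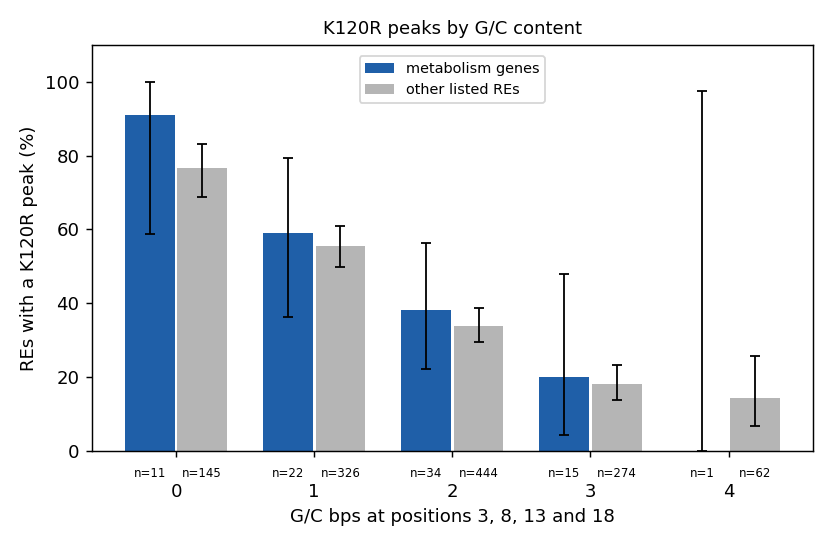
Share of REs with a K120R peak after Tet (y axis, percent) by how many of the 4 G/C positions are G/C (x axis), for REs of metabolism genes (blue) and the other listed REs (grey), all with a WT peak. Error bars are exact 95% intervals and n is the number of REs, and the share of metabolism REs falls from 90.9% with no G/C bp to 20.0% with 3.

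At the 4 positions together, 48 of 156 bp (30.8%) were G/C in REs with a K120R peak and 91 of 176 (51.7%) in REs without one, beside 33.1 and 53.8% over all listed REs. Because the strand of a listed RE is arbitrary, positions 3 and 18, and positions 8 and 13, change places when an RE is read from the other strand. At positions 3 and 18 together, G/C made up 32.1% with a K120R peak and 58.0% without. At positions 8 and 13 it made up 29.5 and 45.5%. On the strand as listed, the difference was 38.0 percentage points at position 3, 22.4 at position 8, 9.56 at position 13 and 13.8 at position 18. The 4 positions, which were chosen for such a difference, had a mean of 20.9 points. The 8 other positions outside the cores had a mean of −2.03 points with a range from −21.2 to 20.0. Differences near 20 points in both directions were also found at positions 1, 2, 11 and 12. The metabolism REs are therefore too few to set position 8, 13 or 18 apart singly. The 38.0 points at position 3 were larger than at any other position, but hold for the arbitrary strand as listed and for a position chosen on these libraries. The core positions differed by 0.35 points on average. REs with a K120R peak had a mean of 1.92 mismatches to the consensus and REs without one had 2.18, beside 2.11 and 2.13 over all listed REs. K120R p53 had a peak at 29 of 60 REs with intact cores (48.3%) and at 10 of 23 with a core mismatch (43.5%), beside 42.5 and 36.7% over all listed REs.

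**Figure D3:**
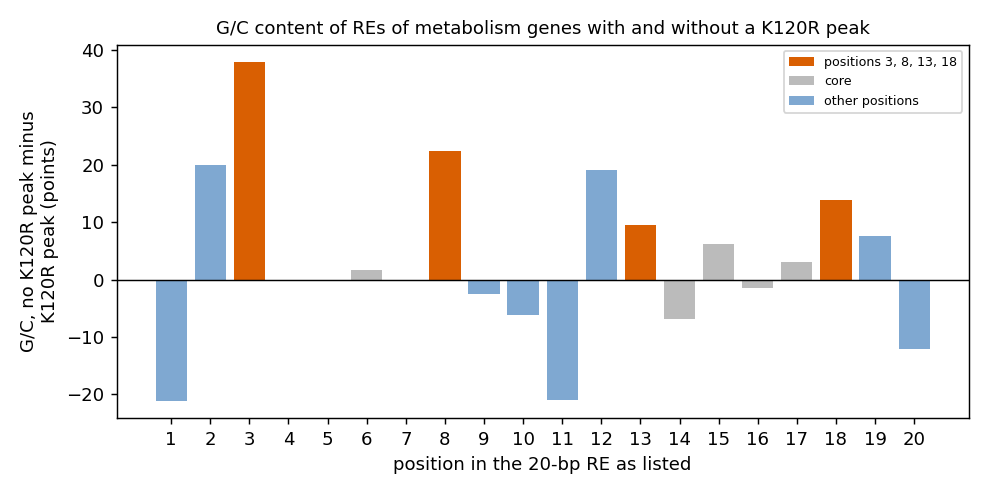
Difference in G/C content (y axis, percentage points) between the 44 REs of metabolism genes without and the 39 with a K120R peak at each position of the RE (x axis). The 4 positions that the study chose on these libraries (orange) run from 9.56 to 38.0 points, and the other positions outside the cores (blue) lie on both sides of 0.

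In the classes at the ends, 1 of 11 REs with no G/C bp lacked a K120R peak and 3 of 16 with 3 or 4 had one, while 9 of 22 REs with 1 G/C bp also lacked one. The RE of MID1IP1, a regulator of acetyl-CoA carboxylase and fatty acid synthesis, had no G/C bp at these positions and no K120R peak, and its WT fold enrichment of 7.01 was in the lowest quartile of the listed REs. The RE of ALDH3A1 had 3 G/C bps and a K120R peak of 6.00, with WT values of 28.1 after Tet and 9.78 in untreated cells. The RE of FHL2, a LIM-domain protein with no known enzymatic role in metabolism, had 3 G/C bps and a K120R peak of 5.32, with WT values of 21.5 and 7.67. The RE of DHRS3, which reduces retinal, had 3 G/C bps, a K120R peak of 4.87 and a WT value of 10.2, with no peak in untreated cells. The K120R peaks at these 3 REs stood in the lower part of their list, at 65.3, 78.5 and 86.2% from the top, and none had a −log10 q of at least 10.

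WT p53 had a peak in untreated cells at 16 of the 83 REs (19.3%, 95% interval 11.4 to 29.4%), beside 23.8% of all listed REs. Their median WT fold enrichment after Tet was 30.2 (95% interval 20.3 to 40.5), and at the 67 REs without an untreated peak it was 12.2 (10.6 to 14.5), beside 28.8 and 11.4 over all listed REs. After MTHFD1L (37.7) and PRKAG2 (20.2), the largest untreated values were 16.6 at an RE of IMPAD1, whose product is a Golgi phosphatase that removes a by-product of sulfate transfer, 10.4 at the distal RE of BCKDHB and 10.1 at SPTSSA. That RE of IMPAD1 had a WT fold enrichment of 13.6 in the list of Tet-treated cells. K120R p53 had a peak after Tet at 11 of the 16 REs (68.8%) and at 28 of the 67 others (41.8%), beside 65.4 and 32.8% over all listed REs. The intervals of these shares, 41.3 to 89.0% and 29.8 to 54.5%, overlapped. The REs of NPL, HS3ST4, PURG and PTER, and 1 of the 2 REs of IMPAD1, had a WT peak in untreated cells and no K120R peak after Tet. The summit of the untreated peak lay within 100 bp of the centre of the RE at 13 of the 16 REs. Those with a summit further away included PURG and this RE of IMPAD1. The untreated peak at PTER had a −log10 q under 5. PTER encodes a protein related to bacterial phosphotriesterases.

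**Figure D4:**
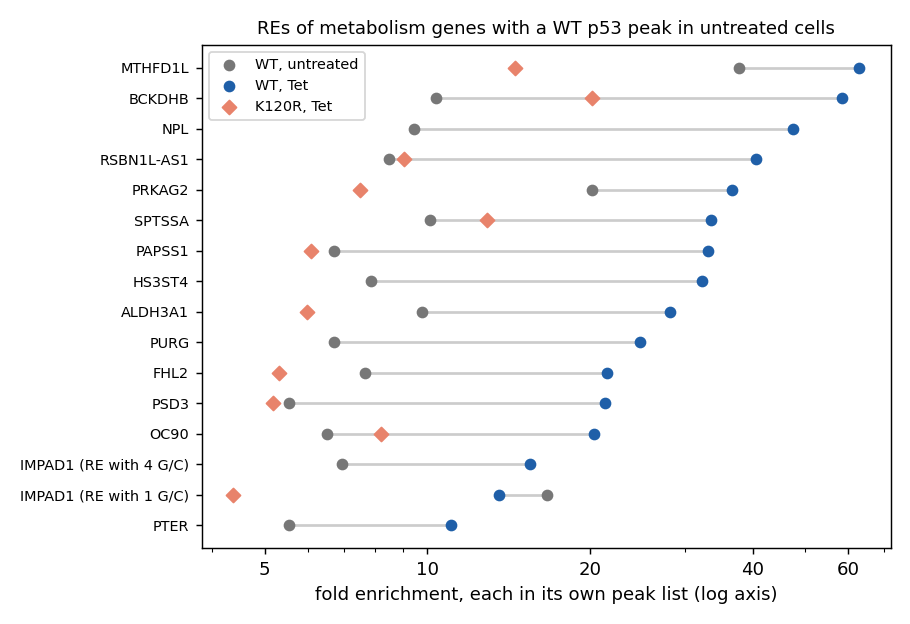
Fold enrichment (x axis, log) at the 16 REs of metabolism genes with a WT peak in untreated cells, for WT p53 in untreated cells (grey), WT p53 after Tet (blue) and K120R p53 after Tet (salmon diamonds, absent where no peak was called). Each value belongs to its own peak list, so lengths of the grey lines are no measure of a change in binding, and REs are ordered by the WT value after Tet, with MTHFD1L (62.9) at the top.

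The 85 REs were divided by the textbook role of the listed gene. All 6 REs of nucleotide metabolism genes had a K120R peak (95% interval 54.1 to 100%), beside 40.6% of all listed REs with a WT peak. Of the 6, 5 had 0 or 1 G/C bp at the 4 positions. The share over all listed REs with 0 or 1 G/C bp was 62.5%, inside that interval. The 6 REs belong to the nucleotidase NT5M (WT 19.6, K120R 7.51), the uridine phosphorylase UPP2 (10.5 and 5.81), the guanine deaminase GDA (6.83 and 5.33), the NADH pyrophosphatase NUDT12 (18.4 and 8.76), AK3 and DERA. Of these K120R peaks, those of NT5M, GDA and NUDT12 had a −log10 q under 10, and that of GDA was under 5. The K120R summit at DERA lay 119 bp from its RE. Of the 17 REs of genes of fatty acids, phospholipids and eicosanoids, 4 had a K120R peak (23.5%, 95% interval 6.81 to 49.9%, which includes the 40.6%). The intervals of these groups did not overlap, but both were picked from 10 role groups after their counts were known.

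The other role groups lay between these, and the 40.6% of all listed REs was inside the interval of each. A K120R peak lay at 5 of 11 REs of amino acid, one-carbon and glutathione genes, which also held both the largest (62.9) and the smallest (3.76) WT value. One was called at 5 of the 13 WT-bound REs of genes of sugars, glycans and sulfate transfer. Of the REs of sphingolipid genes, 3 of 4 had one, and their median WT fold enrichment was 20.9. The sterol, steroid and retinoid genes had 4 of 6, led by the lanosterol demethylase CYP51A1 (WT 25.5, K120R 14.3). The detoxification genes had 2 of 8, ALDH3A1 (WT 28.1, K120R 6.00) and CYP1B1 (WT 17.2, K120R 11.7). The genes of mitochondrial energy, cofactors and energy sensing had 4 of 7 and the lowest median WT value, 8.92, although PRKAG2 was among them. The carbonic anhydrase family had 1 of 2, with the RE of CA12 at 18.2 for WT p53 and 7.26 for K120R p53. A further 9 REs were listed for genes whose known role is not metabolic or is not known, and 5 of them had a K120R peak.

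**Figure D5:**
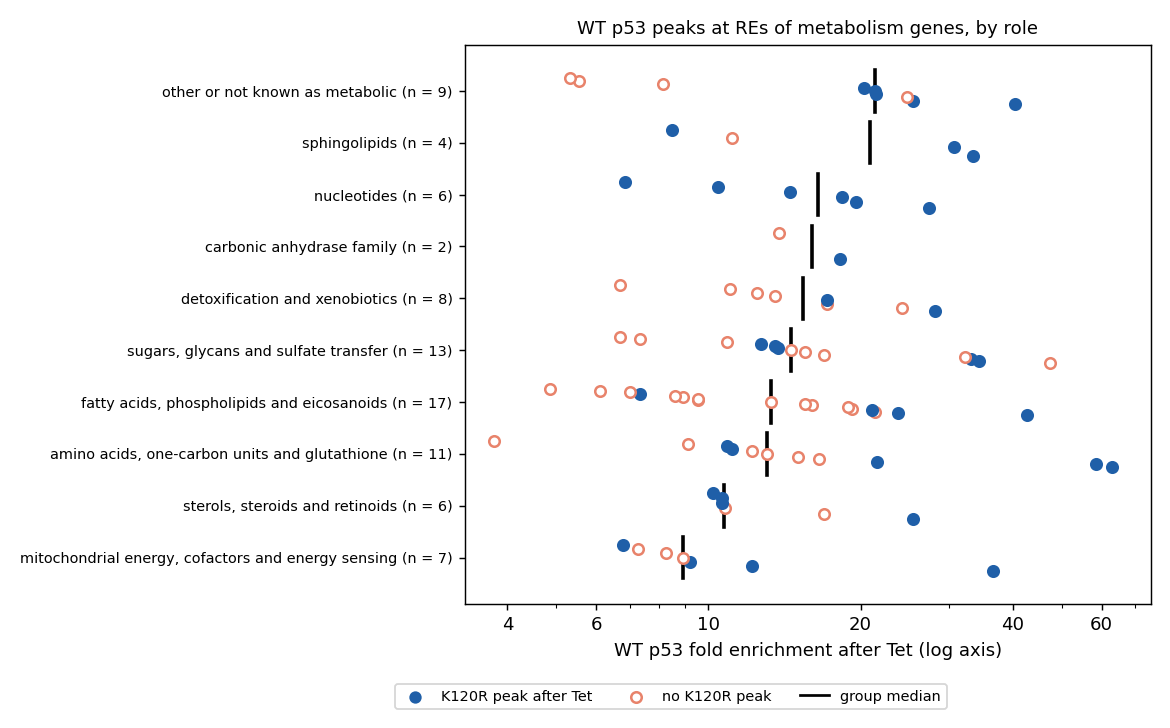
WT fold enrichment after Tet (x axis, log) at the 83 WT-bound REs, by the role of the listed gene (y axis, n REs). Filled blue points had a K120R peak, open salmon points had none, and black bars are group medians, which run from 8.92 (mitochondrial energy) to 21.3 (other roles), while all 6 REs of nucleotide genes are filled.

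Some REs shared their sequence or gene with another, which allowed a comparison of sites of like sequence. CYP4F2 and CYP4F3, neighbouring genes for fatty acid hydroxylases, had REs of identical sequence, with WT fold enrichments of 15.5 and 16.0 and no K120R peak at either. The 120 reference bases around these REs (60 on each side) were equal at 76.7%, and how well reads could be assigned to each site was not tested. ACSF3, a malonyl-CoA synthetase, and MCCC2, a subunit of the leucine-degrading methylcrotonyl-CoA carboxylase, also had REs of identical sequence, with WT values of 19.3 and 16.6 and no K120R peak. The RE of RSBN1L-AS1, read from the other strand, differed from theirs by C12T and T20C (positions from 1 at the 5′ end, the ACSF3 base first). Its WT value was 40.5 and it had a K120R peak of 9.05. All 3 had 2 G/C bps at the compared positions. The differing bases are in capitals here.
ACSF3 and MCCC2: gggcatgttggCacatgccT
RSBN1L-AS1, other strand: gggcatgttggTacatgccC

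The REs of MTHFD1L and BCKDHB (distal), which had the largest WT peaks, differed at 2 bases when BCKDHB was read from the other strand, T6G and T16A (the MTHFD1L base first), both in a core. Their WT values were 62.9 and 58.4 after Tet and 37.7 and 10.4 in untreated cells, each pair on the scale of its own list.
MTHFD1L: ggacaTgcccaggcaTgtcc
BCKDHB (distal), other strand: ggacaGgcccaggcaAgtcc

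The RE of SPTSSA had the same listed sequence as that of OC90, a protein of the inner ear. Both had a WT peak after Tet (33.4 and 20.3), a WT peak in untreated cells (10.1 and 6.52) and a K120R peak (12.9 and 8.19). The summit of the untreated peak at OC90 lay over 100 bp from the centre of its RE. The REs of CTBS, a lysosomal chitobiase, and CA10, a carbonic anhydrase-related protein, differed by A13G and G18A (the CTBS base first), had WT values of 14.5 and 13.8, and had no K120R peak. The REs of AADACL4, a member of the arylacetamide deacetylase family, and GLT6D1, a member of a glycosyltransferase family, differed by A1T and A2G with GLT6D1 read from the other strand, had WT values of 8.59 and 10.9, and had no K120R peak. In each of these pairs both REs, or neither, had a K120R peak, except for the pairs with RSBN1L-AS1.

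For 3 genes more than 1 RE was listed. BCKDHB had a second RE in an intron, 248617 bp from the distal one, with a WT value of 15.0 and no K120R peak. PLA2G4A had 3 REs in an intron of the noncoding gene LINC01036, at 579.4 to 810.0 kb from the start of PLA2G4A, with WT values of 21.3, 13.3 and 9.55 and no K120R peak at any. IMPAD1 had an RE with 1 G/C bp and a K120R peak of 4.37, and an RE with 4 G/C bps, a WT value of 15.5 and no K120R peak.

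The REs often lay outside the listed gene, and which gene was nearest was not determined. Of the 85 REs, 25 lay inside the listed gene, 26 inside another annotated gene and 34 in no annotated gene. The median distance to the start of the listed gene was 39.4 kb, and 25 REs lay over 100 kb away, up to 1199 kb for CHAC2, an enzyme of glutathione breakdown. The start of the listed gene was within 2 kb for 3 REs, those of CMBL, a hydrolase (0.309 kb), DHRS3 (0.265 kb) and AK3 (1.35 kb). The RE of SPTSSA lay in an intron of EGLN3, that of COX4I2 in an intron of BCL2L1, and that of CYP51A1 in an intron of AKAP9. K120R p53 had a peak at 10 of 25 REs inside the listed gene, 15 of 25 inside another gene and 14 of 33 in no gene. The 40.6% of all listed REs lay inside the interval of each of these shares. No expression was measured, so the effect of binding on the listed or any other gene was not tested.

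A further perfect consensus decamer lay within 60 bp of 13 of the 83 REs (15.7%, 95% interval 8.61 to 25.3%), beside 13.7% of the listed REs found in the reference. The 13 included BCKDHB (distal), NPL, HS3ST4 and CYP51A1, and all 3 REs of PLA2G4A. Their median WT fold enrichment was 13.1, beside 14.1 for the 70 REs without a further decamer, whereas the medians were 18.05 and 13.37 over the listed REs found in the reference. K120R p53 had a peak at 4 of the 13 (30.8%, 95% interval 9.09 to 61.4%) and at 35 of the 70 (50.0%, 95% interval 37.8 to 62.2%), and these intervals overlapped. Over all listed REs found in the reference, the shares were 43.0% with and 40.6% without a further decamer, in the opposite order.

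To place these REs among p53 targets of metabolism, 30 other genes that are known or proposed to link p53 with metabolism were read from 10 kb upstream to the end of the gene. WT p53 had a peak after Tet at 9 of the 30, beside 12.1% of all protein-coding genes, and K120R p53 at 8, beside 5.95%. WT p53 in untreated cells had a peak at 3, beside 1.53%, and K120R p53 in untreated cells at 0, beside 0.0149%. Both forms had a peak after Tet at 5 genes. Among them, ACAD11, an acyl-CoA dehydrogenase, had 32.5 for WT p53 and 12.6 for K120R p53, CES2, a carboxylesterase, had 27.2 and 11.1, and ISCU, the scaffold for iron-sulfur clusters, had 7.20 and 10.1. PANK1, which makes coenzyme A, had 11.1 and 5.16, and CROT, a peroxisomal acyltransferase, had 13.6 and 5.61. The genes were not matched in length to all protein-coding genes, and this choice was made with results of these data known.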

How the data were processed

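ChIP-seq libraries of WT and K120R p53 from untreated and Tet-treated H1299 cells were analysed, 1 per condition, with groups taken from the sample labels. Per the methods, uniquely aligned reads were placed on GRCh37 by the authors with BWA-MEM, who then ran MACS 2.1.1.20160309 on each library against its input, with a q cutoff of 0.05. The deposited pileup is the signal height at the summit, as scaled by MACS, and fold enrichment, also deposited, is this height as a ratio to the local background, while p and q values were deposited by the authors as −log10. No deposited value was scaled again. Depths were 33059650 to 34857204 ChIP tags and 32480936 to 41132992 input tags.

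Positions and sequences of REs came from the source data, and sequences around them from GRCh37 with GENCODE 44 for genes. The labels Metabolism (81 REs), Metabolsim (3) and 1 joint label with fatty acyl-CoA binding were taken, while 6 REs labelled metabolic process were not. Mismatches were counted against the p53 consensus. No test or p-value was computed, as there were no replicates. Analysis used Python 3.11.15, numpy 2.4.6, pandas 2.3.3, scipy 1.17.1 and matplotlib 3.10.9, and overlap and intervals were tested on simulated data.

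The members, role groups, the list of 30 genes and the comparisons were chosen with earlier results of these data known. Named REs were the 10 largest WT values, the 5 largest K120R values, the 5 largest WT values without a K120R peak, the 5 largest untreated values, REs without a WT peak, exceptions by G/C content, REs sharing a sequence or gene, and the largest WT value per role group. Other names were chosen after their values were seen. Alternatives were a −log10 q of at least 5 or 10, a fold enrichment of at least 5, summits within 100 bp, other rules of membership, 1 RE per gene, and leaving out REs with untreated peaks or genes not known as metabolic. Narrow-peak and summit files were not used.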

Additional observations from a re-analysis of the deposited data

How the results depend on the processing

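The alternatives gave 72 values, of which 4, all shares, lay outside the interval of the main value. The other shares and medians stayed within theirs, while the number of WT-bound REs stayed within 1.5 times of 83. The 4 all came from requiring a −log10 q of at least 10, which left 80 REs with a WT peak. They were all of the shares followed, so every share depended on this minimum. The share of REs with a K120R peak was then 26.25% (23.9% of the listed REs), the share with a WT peak in untreated cells was 11.25%, the K120R share with 0 or 1 G/C bp was 42.4%, and that with 3 or 4 G/C bps was 0%. Fewer peaks pass this minimum by construction. No paired analysis was possible because each condition had 1 library and no result came from a test, and no replicate could be left out. Pileup in place of fold enrichment was run only as the ratio of the medians of REs with and without a K120R peak, which was 1.60 in place of 1.68. Depth limits each absence of a peak, since values below the caller's threshold were not listed.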

Other observations

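The K120R peak at PON3, a lactonase, had a summit within 100 bp of the centre of the RE but did not cover the RE, so it was not counted among the 39.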
